A study of Litchi chinensis with 30 samples.

Results

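Auxin is made in plants mainly by a pair of linked reactions, and the genes of both were followed through the development of litchi flowers. In Arabidopsis, TAA1 and its relatives (TAR proteins) are aminotransferases that turn tryptophan into indole-3-pyruvate, and flavin monooxygenases of the YUCCA (YUC) family turn indole-3-pyruvate into indole-3-acetic acid, the main auxin. Arabidopsis mutants that lack YUC2 and YUC6 fail in stamen growth and pollen formation, those that lack YUC1 and YUC4 form too few floral organs, and those that lack TAA1 and TAR2 have a malformed gynoecium. Members were taken by annotation, as the entries of the deposited table whose Swiss-Prot description names an indole-3-pyruvate monooxygenase, an L-tryptophan--pyruvate aminotransferase or a tryptophan aminotransferase-related protein. This choice was made with earlier results of these data known. Letter case was ignored, and 23 of 37234 entries qualified (11 with exact case), of which 15 were YUCCA entries and 8 aminotransferase entries.

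RNA was sequenced from flowers of the litchi cultivar 'Feizixiao' in 30 libraries, 3 for each of 10 groups. The groups were functionally female flowers at stages 1 to 5 (F1 to F5), which keep rudimentary stamens, and functionally male flowers at stages 1 to 5 (M1 to M5), which keep a rudimentary pistil, all untreated. Stages 1 to 3 were buds of increasing size, stage 4 was partly open flowers and stage 5 was full bloom. The labels do not say that replicates came from separate trees, and the study's methods describe triplicates taken from differently facing parts of the tree. The p-values therefore measure only the spread between these samples. Total counts were 27433038 to 43760285 per library. In such bulk samples, fewer cells of a type and less RNA per cell cannot be told apart.

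The 23 entries came from 19 loci, 13 YUCCA and 6 aminotransferase loci, since 3 loci had several entries. Flavin-binding monooxygenase-like domains were annotated on the YUCCA entries other than YUC1 (LITCHI008974), and the entries named TAA1 and TAR2 carried an allinase and an aminotransferase class I and II domain. The 3 entries named TAR4 carried the allinase domain with an alliinase EGF-like domain, without the aminotransferase class I and II domain and without a KEGG assignment. No count was found in any library for 3 entries, the YUC11 entry LITCHI011381 and the YUC4 entries LITCHI008968 and LITCHI008970, and a total of 5 entries had at most 5 counts. A mean of at least 1 FPKM (fragments scaled to transcript length and sequencing depth) in some group was reached by 11 entries, 7 YUCCA and 4 aminotransferase entries. The filter on low counts passed 15 entries, 8 YUCCA and 7 aminotransferase entries, and these alone were tested.

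**Figure D1:**
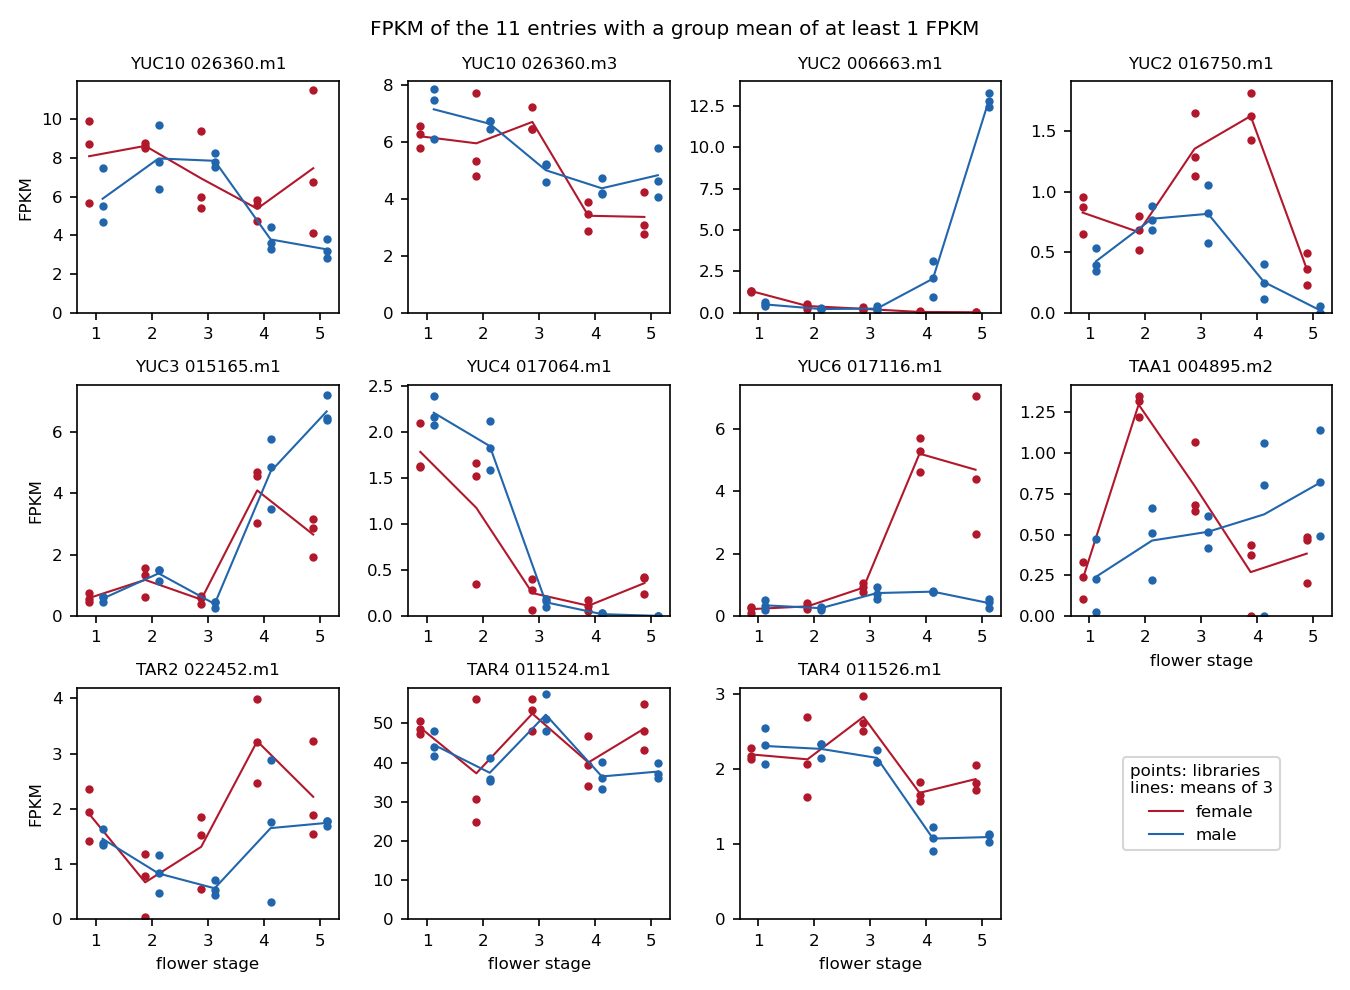
FPKM (y axes, each from 0) at flower stages 1 to 5 (x axes) for the 11 entries that reached a group mean of 1 FPKM, with female flowers in red and male flowers in blue, a point for each library and lines through the means of 3 libraries. The YUC6 points at stage 4 lie at 4.64 to 5.72 FPKM in female flowers and at 0.761 to 0.811 FPKM in male flowers, and the YUC2 entry LITCHI006663 reaches 12.4 to 13.3 FPKM in male flowers at stage 5.

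Most of the transcript of the aminotransferase entries came from 1 gene, which is not an established enzyme of the pathway. The TAR4 entry LITCHI011524 made up 86.2% to 93.6% of the summed aminotransferase FPKM in the group means, and its own means ran from 36.4 ± 3.58 FPKM in M4 to 52.5 ± 4.14 FPKM in F3 (SD, n = 3). TAR4 has no settled role in auxin synthesis in Arabidopsis, unlike TAA1 and TAR2. In no neighbouring pair of the 10 groups, ordered by this level, did all libraries of one group lie above all of the next.

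Female and male flowers had similar levels of this TAR4 entry. At stage 5 it had 54.9, 47.95 and 43.2 FPKM in female flowers, against 36.0, 39.96 and 37.1 FPKM in male flowers. The female libraries all lay above the male libraries in FPKM, but FPKM values do not contain the TMM scaling of the test, in which the log2 fold change was -0.10 with a 95% interval of -0.50 to 0.31 (edgeR adjusted p = 0.691). With library-size scaling the sign was turned (0.37). Across the 5 stages its log2 fold change between the sexes lay between -0.10 and 0.07. A positive value means higher in female flowers.

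The second TAR4 entry, LITCHI011526, was less abundant, and its values in partly open flowers lay below those of the largest buds in both sexes, by less than the 2-fold limit used for calls. It had 1.56, 1.65 and 1.83 FPKM in F4, against 2.496, 2.60 and 2.97 FPKM in F3, without overlap, and a log2 fold change of -0.72 ± 0.15 (approximate SE, edgeR adjusted p = 0.000822). In male flowers it had 0.911, 1.23 and 1.07 FPKM in M4, against 2.25, 2.09 and 2.10 FPKM in M3, with a log2 fold change of -0.88 ± 0.16 (edgeR adjusted p = 5.75e-05). The remaining TAR4 entry, LITCHI011525, had 107 counts over all libraries and was seen in 8 of them.

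TAR2, which acts beside TAA1 in the Arabidopsis gynoecium, was represented by 1 locus with the entries LITCHI022452.m1 and LITCHI022452.m3. Reads were split between them unevenly: in M4 the m1 entry had 20, 128 and 213 counts and the m3 entry had 74, 7 and 0 counts. The split is therefore uncertain, and both entries missed the call in all 17 comparisons. With the entries of each locus summed, TAR2 had 4.01, 4.24 and 4.08 FPKM in F4, against 1.57, 1.95 and 1.27 FPKM in F3, and 1.33, 1.84 and 2.89 FPKM in M4, against 0.778, 0.531 and 0.437 FPKM in M3.

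Both of these rises passed the test in the fit on summed loci, in which 14.4% of 25008 loci were called in female flowers and 23.1% in male flowers. The log2 fold changes of TAR2 were 1.33 ± 0.27 from stage 3 to stage 4 in female flowers (edgeR adjusted p = 0.000419) and 1.96 ± 0.29 in male flowers (edgeR adjusted p = 4.29e-06). At stage 3 the summed locus was also higher in female than in male flowers, by 1.41 ± 0.29 (edgeR adjusted p = 0.003635), where 1.18% of loci were called. The libraries of F3 and M3 did not overlap.

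TAA1, the founding aminotransferase of the pathway, also had its reads split, at the locus LITCHI004895. The m2 entry had 1.32, 1.35 and 1.23 FPKM in F2, its highest group, against 0.102, 0.332 and 0.237 FPKM in F1, without overlap, but its spread over other groups was wide and it was not called (log2 fold change 2.53 ± 1.00, edgeR adjusted p = 0.121). Summed over its 2 entries, the locus had 1.42, 1.55 and 1.53 FPKM in F2, against 0.187, 0.449 and 0.299 FPKM in F1, and was called with a log2 fold change of 2.26 ± 0.47 (edgeR adjusted p = 0.001904, 3.76% of loci called).

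Between the sexes the summed TAA1 locus was not called at stages 1, 2 and 3, with log2 fold changes of -0.22, 1.27 and 0.45 (edgeR adjusted p = 0.8311, 0.0918 and 0.6005), and was lower in female flowers at stages 4 and 5. It had 0.584, 0.374 and 0.449 FPKM in F4, against 1.39, 0.806 and 1.59 FPKM in M4, with a log2 fold change of -1.65 ± 0.46 (edgeR adjusted p = 0.004032, 19.8% of loci called). At stage 5 it had 0.466, 0.2 and 0.722 FPKM in F5, against 1.14, 0.665 and 0.895 FPKM in M5, where 1 pair of libraries crossed and the log2 fold change was -1.49 ± 0.46 (edgeR adjusted p = 0.00647, 32.8% of loci called). The other TAA1 entry, LITCHI027864, had 5 counts, all in 1 F5 library.

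YUC10, known in Arabidopsis from embryos and seeds, gave most of the YUCCA transcript in buds. The 3 entries of its locus LITCHI026360 together held 73.9% ± 4.86 of the summed YUCCA FPKM in F1, 78.4% ± 6.26 in F2, 78.8% ± 1.95 in F3, 43.6% ± 1.53 in F4 and 54.96% ± 5.03 in F5 (SD, n = 3). In male flowers this share was 75.6% ± 1.43 in M1, 75.6% ± 1.88 in M2, 82.4% ± 2.63 in M3, 50.4% ± 8.43 in M4 and 27.8% ± 1.17 in M5. The summed YUC10 level was 8.795 ± 0.225 FPKM in F4, against 13.65 ± 2.04 FPKM in F3, and 8.16 ± 0.568 FPKM in M4, against 12.9 ± 0.110 FPKM in M3. The other YUCCA entries together had 11.4 ± 0.594 FPKM in F4, against 3.69 ± 0.728 FPKM in F3, and 8.23 ± 2.199 FPKM in M4, against 2.76 ± 0.505 FPKM in M3.

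**Figure D2:**
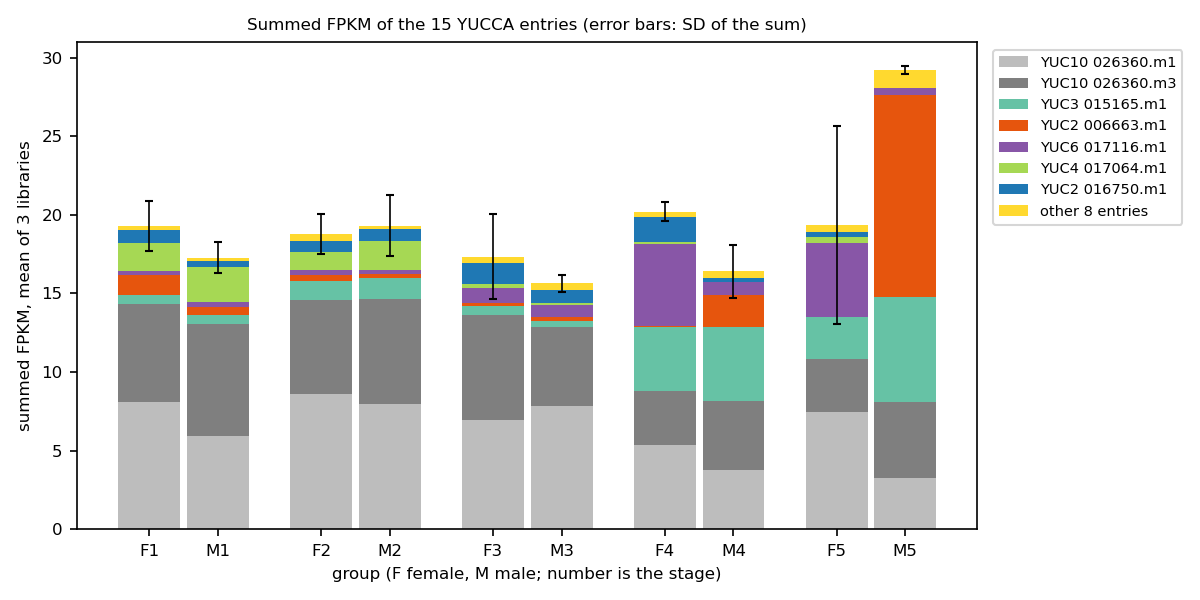
Summed FPKM (y axis) of the 15 YUCCA entries in each group (x axis, female left of male at each stage), as stacked means of 3 libraries with the SD of the sum as error bar. The sum lies at 15.6 to 20.2 FPKM in every group other than M5, where it is 29.2 FPKM, and the makeup at stages 4 and 5 differs between the sexes.

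The sum over the YUCCA family hid changes in its makeup. The summed level was 20.2 ± 0.590 FPKM in F4, against 16.4 ± 1.67 FPKM in M4, and 19.3 ± 6.30 FPKM in F5, against 29.2 ± 0.254 FPKM in M5 (SD, n = 3). At stage 5 the female libraries held 13.4 to 26.0 FPKM and the male libraries 29.1 to 29.5 FPKM, without overlap. At stage 5, 43.9% ± 1.18 of the male sum came from 1 YUC2 gene and 23.5% ± 3.89 of the female sum from YUC6 (SD, n = 3).

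The sexes were set against each other stage by stage, to see where they part. An entry was called where the edgeR adjusted p was below 0.01 and the fold change reached 2. At stages 1, 2 and 3, 0 of 15 tested entries were called, where 1.32%, 0.535% and 0.761% of all 27854 tested genes were called. At an unadjusted p under 0.05 the numbers of entries were 1, 0 and 1, and DESeq2 also called 0 at each of these stages. Shares of all genes at that p or by DESeq2 were not counted, here or below.

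At stage 4, 4 of 15 entries were called, 2 higher and 2 lower in female flowers, against 16.9% of all genes, 9.55% higher and 7.40% lower. At stage 5, 6 of 15 were called, 3 higher and 3 lower, against 29.2% of all genes, 17.6% higher and 11.6% lower. DESeq2 also called 4 and 6. By entry, all of these calls were YUCCA entries, at most 6 of 8 tested, and 0 of the 7 tested aminotransferase entries were called by edgeR at any stage, with 1 at an unadjusted p under 0.05 at stage 4 and 0 at the others. In the fit on summed loci 0, 0, 1, 1 and 1 of 5 aminotransferase loci were called at stages 1 to 5, TAR2 at stage 3 and TAA1 at stages 4 and 5, with the values given above. The median log2 fold change of the 15 entries was 0.29 at stage 4, where that of all genes was -0.02, and -0.10 at stage 5, where that of all genes was 0.03.

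**Figure D3:**
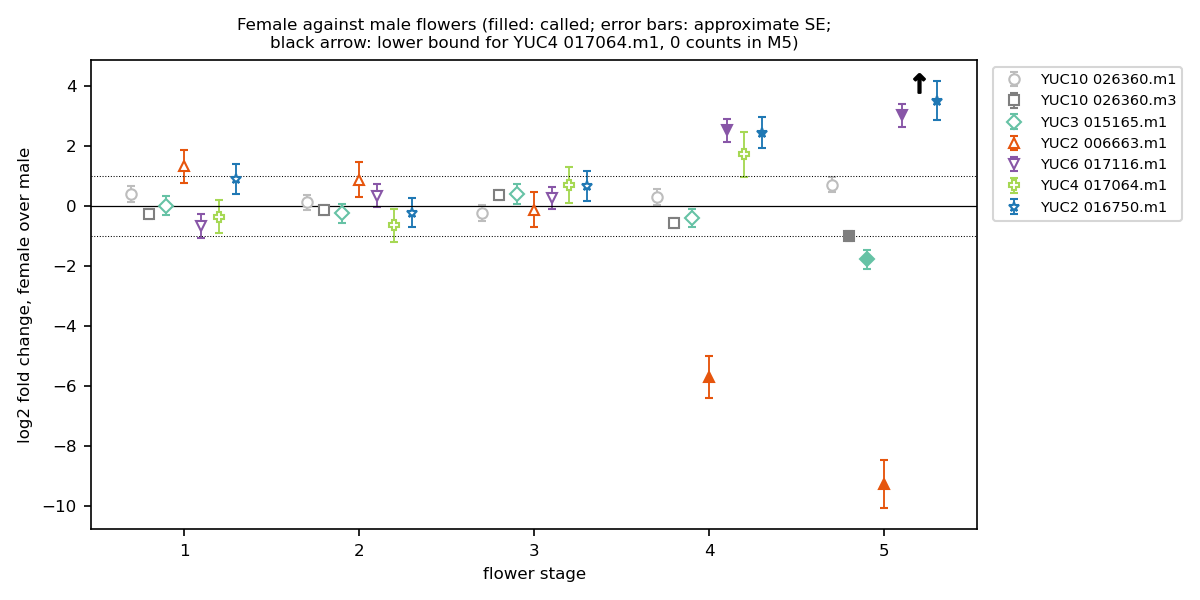
Log2 fold change, female over male (y axis), at flower stages 1 to 5 (x axis) for the 7 YUCCA entries that reached 1 FPKM, with approximate SE, filled symbols for called entries, and dotted lines at the fold limit of 2. The arrow gives the lower bound of 17-fold for YUC4, which had 0 counts in M5, and at stages 1 to 3 every symbol is open.

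YUC2 in Arabidopsis serves stamens and flowers, and the YUC2 entry LITCHI006663 gave the largest fitted difference between the sexes among the 15 tested entries at stage 5. In buds it was highest in F1, with 1.31, 1.32 and 1.27 FPKM in F1, against 0.496, 0.376 and 0.621 FPKM in M1, without overlap. This early difference was not called (log2 fold change 1.31 ± 0.55, edgeR adjusted p = 0.1468).

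In open flowers the same gene was almost absent from female libraries. It had 9, 0 and 5 counts in F4, or at most 0.0778 FPKM, against 0.971, 2.07 and 3.12 FPKM in M4. It had 8, 2 and 0 counts in F5, or at most 0.0587 FPKM, against 12.4, 13.3 and 12.8 FPKM in M5. The male libraries of stage 5 stood above all others of the series.

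The log2 fold changes of this YUC2 gene were -5.70 ± 0.70 at stage 4 (edgeR adjusted p = 7e-07) and -9.28 ± 0.79 at stage 5 (edgeR adjusted p = 8.5e-10). Within male flowers it rose by 3.18 ± 0.59 between stages 3 and 4 (edgeR adjusted p = 0.000102) and by 2.88 ± 0.56 between stages 4 and 5 (edgeR adjusted p = 0.000315). In female flowers it was lower at stage 5 than at stage 1, with a log2 fold change of -5.58 ± 0.71 (edgeR adjusted p = 1.63e-06). With any 1 of the 30 libraries left out, the stage 5 difference between the sexes stayed between -10.86 and -8.70.

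The order of this gene's group means was M5, M4, F1, M1, F2, M3, F3, M2, F4 and F5. All libraries of M5 lay above those of M4, those of F1 above those of M1, and those of M2 above those of F4, while the other neighbours overlapped.

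The second YUC2 entry, LITCHI016750, had the opposite direction. It had 1.82, 1.43 and 1.63 FPKM in F4, against 0.403, 0.241 and 0.114 FPKM in M4, without overlap. At stage 5 it had 0.232, 0.361 and 0.496 FPKM in F5, against 0, 0 and 0.0576 FPKM in M5, where 5 counts in 1 library were all that was found.

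The log2 fold changes of this entry were 2.43 ± 0.52 at stage 4 (edgeR adjusted p = 0.000547) and 3.50 ± 0.65 at stage 5 (edgeR adjusted p = 6.48e-05). Without M5 replicate 3, which held those 5 counts, the fitted stage 5 value was 7.77, which rests on a group with 0 counts and is no bound. A fit of only F5 and M5 gave 3.58 and lost the call (edgeR adjusted p = 0.02266). The profiles of the 2 YUC2 genes over the 10 group means of log2 CPM (counts scaled to library size) had a Pearson correlation of -0.73. This is a description over groups that share libraries and scaling.

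YUC6, which with YUC2 is needed for Arabidopsis stamens, was high in open female flowers. The entry LITCHI017116 had 5.29, 5.72 and 4.64 FPKM in F4, against 0.761, 0.765 and 0.811 FPKM in M4. At full bloom it had 2.62, 4.397 and 7.08 FPKM in F5, against 0.452, 0.237 and 0.542 FPKM in M5. Neither stage showed overlap, though the F5 libraries differed widely among themselves.

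Its log2 fold changes were 2.52 ± 0.38 at stage 4 (edgeR adjusted p = 1.18e-05) and 3.01 ± 0.39 at stage 5 (edgeR adjusted p = 6.54e-07). In female flowers YUC6 was higher at stage 4 than at stage 3, where it had 0.756, 1.05 and 0.927 FPKM, by 2.46 ± 0.38 (edgeR adjusted p = 2.4e-05). Between stages 4 and 3 of male flowers the log2 fold change was 0.20 ± 0.37 (edgeR adjusted p = 0.6965). The only male step in which YUC6 was called was stage 3 against stage 2 (1.57 ± 0.38, edgeR adjusted p = 0.005164), and this call was lost without any 1 of M2 replicates 1, 2 and 3 or M3 replicates 1 and 2, at values of 1.36 to 1.68.

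YUC4, which acts in Arabidopsis floral organ formation, was a gene of young buds. LITCHI017064 had 1.63, 1.62 and 2.10 FPKM in F1 and 1.52, 1.66 and 0.345 FPKM in F2, and it had 2.07, 2.39 and 2.16 FPKM in M1 and 2.12, 1.59 and 1.83 FPKM in M2. From stage 3 on, no library of either sex exceeded 0.427 FPKM. The 1 low library of F2 stood apart from the other 2.

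The decrease was called in male flowers at stage 3 against stage 2 (log2 fold change -3.59 ± 0.63, edgeR adjusted p = 0.000289) and missed the limit at the same step in female flowers (-2.25 ± 0.59, edgeR adjusted p = 0.01909). In the fit on summed loci the female step was called (-2.25 ± 0.51, edgeR adjusted p = 0.005138), though YUC4 has 1 entry at this locus and its counts were the same in both fits. The difference between those steps was not tested. At stage 5 YUC4 had 21, 33 and 36 counts in F5 and 0 counts in all of M5, so it was at least 17-fold higher in F5, taking 3 counts as the limit over the 3 libraries of M5. It was called at this stage (edgeR adjusted p = 9.74e-06).

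YUC3 rose with opening in both sexes. LITCHI015165 had 3.03, 4.56 and 4.699 FPKM in F4, against 0.375, 0.567 and 0.657 FPKM in F3, and 3.50, 4.86 and 5.78 FPKM in M4, against 0.246, 0.457 and 0.462 FPKM in M3. The log2 fold changes were 2.88 ± 0.33 in female flowers (edgeR adjusted p = 5e-07) and 3.70 ± 0.34 in male flowers (edgeR adjusted p = 7.74e-09). Stages 3 and 4 did not overlap in either sex.

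Between the sexes YUC3 was called at full bloom and at none of the earlier stages, with a log2 fold change of -0.42 ± 0.30 at stage 4 (edgeR adjusted p = 0.2687). It had 2.87, 3.16 and 1.93 FPKM in F5, against 7.195, 6.44 and 6.38 FPKM in M5, with a log2 fold change of -1.79 ± 0.31 (edgeR adjusted p = 3.25e-05). In male flowers it was also lower at stage 3 than at stage 2, with 0.246, 0.457 and 0.462 FPKM in M3 against 1.15, 1.51 and 1.51 FPKM in M2 (log2 fold change -1.82 ± 0.32, edgeR adjusted p = 0.000272).

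The YUC10 entries gave calls that turned on their split. LITCHI026360.m3 had 2.78, 3.09 and 4.23 FPKM in F5, against 4.07, 5.79 and 4.64 FPKM in M5, which overlapped, and its log2 fold change of -1.01 ± 0.17 just passed the fold limit (edgeR adjusted p = 2.39e-05). LITCHI026360.m1 had 4.10, 6.78 and 11.5 FPKM in F5, against 3.82, 2.81 and 3.20 FPKM in M5, and was not called (0.70 ± 0.26, edgeR adjusted p = 0.02559). Summed over the locus the difference was 0.07 ± 0.18, the other sign from the m3 entry alone (edgeR adjusted p = 0.7335). The m3 call was also lost with library-size scaling (-0.52), with only the groups compared (-0.93, edgeR adjusted p = 0.0122) and without F5 replicate 1 (-0.93), F5 replicate 2 (-0.96) or M5 replicate 2 (-0.85).

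The ratio of the m1 to the m3 entry in FPKM was 2.13 ± 0.624 in F5, against 0.704 ± 0.227 in M5, and 1.62 ± 0.404 in F4, against 0.871 ± 0.166 in M4 (SD, n = 3). Whether these entries are separate transcripts was not tested.

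YUC11, known in Arabidopsis from seeds, stayed under 1 FPKM throughout. LITCHI011353 had 0 counts in the libraries of stages 2 and 3 of both sexes and of F4, against 6, 8 and 20 counts in M4, so it was at least 14.1-fold lower in F4. It was called (edgeR adjusted p = 0.00322), and the call was lost without any 1 F4 library or M4 replicate 3 (edgeR adjusted p of 0.0108 to 0.0118). At stage 5 it had 20, 6 and 7 counts in F5, against 34, 47 and 52 counts in M5, without overlap and without a call (log2 fold change -2.82 ± 0.97, edgeR adjusted p = 0.02356). In the fit on summed loci it was called at stage 5, where 7 of 12 tested member loci and 32.8% of all loci were. Its locus has 1 entry, so its counts were the same in both fits. YUC1 and YUC8 (LITCHI008974 and LITCHI025923) did not exceed 0.376 FPKM in any group mean and were not tested.

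Changes between neighbouring stages were counted to place the steps at which these genes moved. In female flowers 0 of 15 entries were called at stage 2 against 1 (3.00% of all genes), 0 at stage 3 against 2 (2.51%), 4 at stage 4 against 3 (12.1%, with 4.56% higher and 7.51% lower) and 0 at stage 5 against 4 (1.22%). At an unadjusted p under 0.05 the 3 steps without a call had 4, 4 and 3 entries, and DESeq2 called 1, 3 and 1. The shares of all genes by these criteria were not counted in either sex, so these numbers have no background beside them. In male flowers 0 were called at stage 2 against 1 (2.66%), with 4 at an unadjusted p under 0.05 and 1 by DESeq2, 3 at stage 3 against 2 (6.23%, with 3.76% higher and 2.47% lower), 3 at stage 4 against 3 (20.4%, with 7.73% higher) and 2 at stage 5 against 4 (10.6%, with 3.63% higher). With the entries of each locus summed, 1, 2, 4 and 1 of 12 tested loci were called at the 4 female steps in order, against 3.76%, 3.71%, 14.4% and 1.74% of all loci. At the 4 male steps 1, 4, 5 and 2 were called, against 3.24%, 7.90%, 23.1% and 12.3%.

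The 4 calls at stage 4 against stage 3 of female flowers were YUC3 and YUC6, which rose, and YUC2 LITCHI006663 and YUC10 LITCHI026360.m3, which fell. For YUC2 the call was marginal: it had 9, 0 and 5 counts in F4, against 34, 24 and 17 counts in F3 (log2 fold change -2.38 ± 0.68, edgeR adjusted p = 0.008176). It was lost in 17 of the 30 fits that left out 1 library, at values of -2.56 to -1.81, among them those without F3 replicate 1, 2 or 3 and F4 replicate 2 or 3. The fall of the YUC10 m3 entry (-1.02 ± 0.17, edgeR adjusted p = 6.18e-05) lost its call without F3 replicate 1 (-0.97) or F4 replicate 1 (-0.90), with library-size scaling (-0.98), with only the groups compared (-0.99) and over the summed locus (-0.61).

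The 3 calls at stage 4 against stage 3 of male flowers were YUC2 LITCHI006663, YUC3 and YUC11 LITCHI011353, all higher in M4. YUC11 was at least 13.4-fold higher in M4, against 0 counts in M3, and this call was lost without any 1 M3 library or M4 replicate 3 (edgeR adjusted p of 0.0110 to 0.0118). At stage 5 against stage 4 of male flowers YUC2 LITCHI006663 rose and YUC2 LITCHI016750 fell, the second with a log2 fold change of -3.24 ± 0.65 (edgeR adjusted p = 0.000433). Without M5 replicate 3 the fitted value was -7.52, which rests on a group with 0 counts and is no bound.

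Whole development was compared as stage 5 against stage 1. In female flowers 4 of 15 entries were called (14.8% of all genes, 7.44% higher and 7.31% lower), with YUC3 and YUC6 higher at full bloom, by 2.10 ± 0.32 and 4.30 ± 0.42, and YUC2 LITCHI006663 and YUC4 lower. The YUC4 value of -2.41 ± 0.59 (edgeR adjusted p = 0.002467) was -2.18 and no longer called without F5 replicate 1. In male flowers 5 of 15 were called (36.8% of all genes, 15.3% higher and 21.5% lower), with YUC2 LITCHI006663, YUC3 and YUC11 LITCHI011353 higher and YUC4 and YUC2 LITCHI016750 lower. The YUC2 LITCHI016750 value of -3.89 ± 0.65 was -8.14 without M5 replicate 3 and lost its call with only the groups compared (edgeR adjusted p = 0.0121). The YUC11 value of 5.00 ± 1.13 was 8.95 without M1 replicate 3. Both of these leave-out values rest on a group with 0 counts and are no bounds. YUC4 was at least 117.5-fold lower in M5, which had 0 counts, against 137, 164 and 150 counts in M1.

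Whether the sexes changed differently was tested as an interaction. For the change between stages 1 and 5, 4 of 15 entries were called, against 22.6% of all genes (14.7% more positive and 7.84% more negative in female flowers). The change between stages 3 and 4 was added after seeing that the first entries called between the sexes were at stage 4, though the summed TAR2 locus was called at stage 3. In that comparison 2 of 15 were called, against 9.64% of all genes (6.16% more positive and 3.48% more negative). YUC2 LITCHI006663 was called in both, with female changes lower by a log2 difference of -10.59 ± 0.95 and -5.56 ± 0.89 (edgeR adjusted p = 6.54e-09 and 7.94e-05). YUC6 was also called in both, with female changes higher by 3.69 ± 0.55 and 2.26 ± 0.52 (edgeR adjusted p = 7.85e-06 and 0.002523), and the second of these was 2.02 and not called without M3 replicate 1 (edgeR adjusted p = 0.0103).

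Markers of other cell types moved with stage and sex. Of 12 tested entries of mature pollen and pollen tube, 10 were lower in female flowers at stage 4, where 7.40% of all genes were, and 10 at stage 5, where 11.6% were. The summed level of all 13 was 61.9 to 93.8 FPKM in F4, against 279 to 351 FPKM in M4, and 74.6 to 146 FPKM in F5, against 311 to 478 FPKM in M5, with 1 of 13 at 0 in each of these groups. Their part in the differences of YUC2, YUC3, YUC4, YUC6 and YUC11 was not tested.

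Tapetum and pollen wall markers peaked at stage 2, at 755 to 1858 FPKM over 19 entries in F2 and 1047 to 1256 FPKM in M2. At stage 5 their sum was 64.7 to 112 FPKM in F5, against 47.8 to 61.1 FPKM in M5, without the TMM scaling of the test. Of 17 tested entries, 3 were called higher and 1 lower in female flowers, where 17.6% of all genes were higher and 11.6% lower. The 3 carpel and ovule entries, with none at 0 in any group, summed to 379 to 409.9 FPKM in F4, against 636 to 740.2 FPKM in M4, and to 179 to 301 FPKM in F5, against 419.6 to 462 FPKM in M5. Most of this sum came from 1 entry, CRABS CLAW. Its mean over all libraries was 262 FPKM, against 4.38 FPKM for BEL1, the second most abundant of the 3. At stage 4, 1 of the 3 was called higher and 1 lower in female flowers, where 9.55% of all genes were higher and 7.40% lower. At stage 5 AGL11 was higher in F5 (log2 fold change 4.57 ± 0.32, edgeR adjusted p = 3.57e-11) and CRABS CLAW was lower (-1.54 ± 0.15, edgeR adjusted p = 7.46e-09). Their part was not tested either.

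The genes around the pathway were taken from 7 lists of annotations with 63 entries, of which 54 were tested. Between the sexes, 1, 1 and 3 of the 54 were called at stages 1, 2 and 3, against 1.32%, 0.535% and 0.761% of all genes. At stage 4, 14 were called, 3 higher and 11 lower in female flowers, against 9.55% of all genes higher and 7.40% lower, with a median log2 fold change of -0.29, where that of all genes was -0.02. At stage 5, 29 were called, 14 higher and 15 lower, against 17.6% of all genes higher and 11.6% lower, with a median of -0.18, where that of all genes was 0.03.

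**Figure D4:**
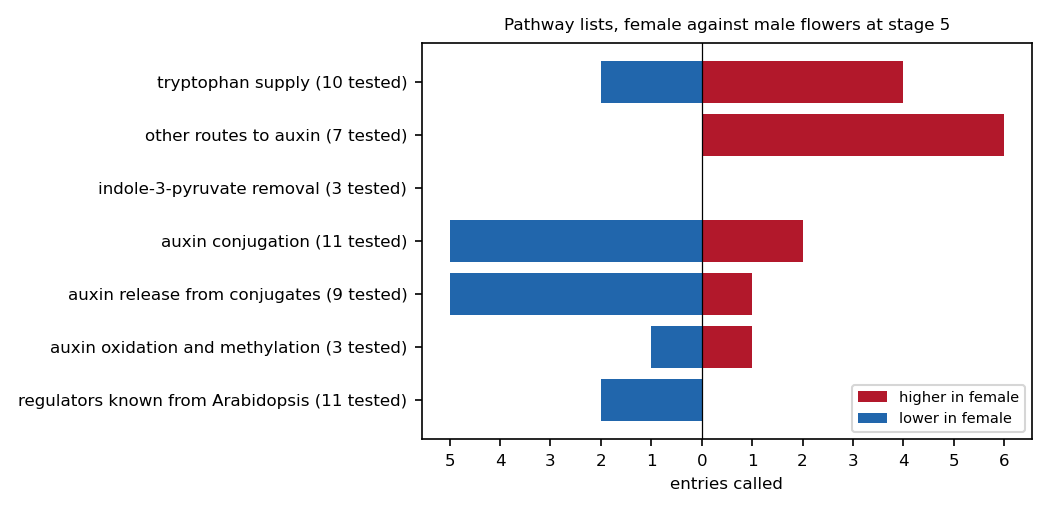
Number of entries (x axis) called between female and male flowers at stage 5 in 7 lists of auxin pathway genes (y axis, with the number tested), red to the right for higher and blue to the left for lower in female flowers. All 6 calls on other routes to auxin are higher in female flowers, and 5 of 6 calls on release from conjugates are lower.

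Tryptophan supply was changed in both directions at stage 5, with 4 entries higher and 2 lower in female flowers among 10 tested, against 17.6% of all genes higher and 11.6% lower. Anthranilate synthase alpha subunit, the entry enzyme of tryptophan synthesis, was higher at LITCHI025090 with 36.9 ± 8.46 FPKM in F5, against 3.68 ± 0.548 FPKM in M5 (log2 fold change 2.84 ± 0.17, edgeR adjusted p = 3.28e-12). The tryptophan synthase beta chain LITCHI013419, which makes tryptophan itself, was lower with 97.6 ± 21.8 FPKM in F5, against 453 ± 46.0 FPKM in M5 (-2.68 ± 0.18, edgeR adjusted p = 1.59e-11). A second beta chain, LITCHI019253, had 40.1 ± 7.66 FPKM in F5, against 20.6 ± 1.57 FPKM in M5, and was not called (0.49 ± 0.23, edgeR adjusted p = 0.0673).

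Of the 7 tested entries on other routes to auxin, 6 were higher in female flowers at stage 5, where 17.6% of all genes were, with a list median of 1.51. They were 5 entries named amidase 1, an enzyme that makes auxin from indole-3-acetamide in Arabidopsis, and a nitrilase of the NIT4 type, known in plants mainly for cyanide detoxification. As the amidase 1 entries carry the same name, reads shared between near copies could move their values. The most abundant amidase 1 entry, LITCHI003948, had 44.8 ± 1.20 FPKM in F5, against 15.4 ± 2.52 FPKM in M5 (log2 fold change 1.07 ± 0.21, edgeR adjusted p = 0.000143), and LITCHI003950 had 23.5 ± 1.74 FPKM in F5, against 5.40 ± 0.757 FPKM in M5 (1.64 ± 0.22, edgeR adjusted p = 1.23e-06).

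Of the genes that conjugate or release auxin most that were called at stage 5 were lower in female flowers, where 17.6% of all genes were called higher and 11.6% lower. GH3 enzymes, which join auxin to amino acids, were called for 7 of 11, with 2 higher and 5 lower, and the most abundant, LITCHI001495 (GH3.1), had 20.6 ± 8.23 FPKM in F5, against 56.6 ± 10.3 FPKM in M5 (log2 fold change -1.92 ± 0.29, edgeR adjusted p = 4.74e-06). Hydrolases that free auxin from such conjugates were called for 6 of 9, with 1 higher and 5 lower, and LITCHI005030 had 57.9 ± 9.91 FPKM in F5, against 178.5 ± 10.6 FPKM in M5 (-2.09 ± 0.21, edgeR adjusted p = 1.2e-08). The next most abundant of each list were also lower in female flowers, with -2.39 ± 0.66 at GH3.6 LITCHI013323 (edgeR adjusted p = 0.003409) and -1.44 ± 0.16 at the hydrolase LITCHI030001 (edgeR adjusted p = 4.82e-08). Several of the GH3 and hydrolase entries carry the same name, and reads shared between near copies could move their values.

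ISS1, an aminotransferase that removes indole-3-pyruvate in Arabidopsis, stayed under the 2-fold limit, with a log2 fold change of -0.80 ± 0.15 at LITCHI030740, its most abundant entry, at stage 5 (edgeR adjusted p = 6.43e-05), and 0.66 ± 0.14 at LITCHI017078 (edgeR adjusted p = 0.000427). DAO, which oxidizes auxin, was lower in F5 (-1.25 ± 0.21, edgeR adjusted p = 1.82e-05), and an indole-3-acetate O-methyltransferase, LITCHI013857, was higher (1.71 ± 0.30, edgeR adjusted p = 3.06e-05), while another, LITCHI013868, was not called (-0.48 ± 0.22, edgeR adjusted p = 0.0697). Of 11 tested regulators known to act on YUCCA genes or auxin in Arabidopsis, 2 were called at stage 5 (29.2% of all genes), both lower in female flowers. They were NGA1 LITCHI026766, with 1.58 ± 0.0910 FPKM in F5, against 4.30 ± 0.0529 FPKM in M5 (-1.91 ± 0.27, edgeR adjusted p = 1.81e-06), and LRP1 LITCHI019960.m3, with -2.41 ± 0.69 (edgeR adjusted p = 0.004452). The m1 entry of the same LRP1 locus was not called (-0.58 ± 0.42, edgeR adjusted p = 0.2435), and the split between entries is uncertain there too.

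Profiles were last compared over the 10 group means of log2 CPM, as a description over groups that share libraries and scaling. Among the 55 pairs of the 11 entries that reached 1 FPKM, Pearson correlations ran from -0.91, between YUC10 LITCHI026360.m3 and YUC6, to 0.80, between YUC10 LITCHI026360.m1 and TAR4 LITCHI011526. The tested genes most like YUC2 LITCHI006663 were a protein kinase named AFC3 (LITCHI005507, r = 0.98), a GTP-binding protein named BPG2 (LITCHI008723, r = 0.97) and LITCHI006557, which had no Swiss-Prot annotation (r = 0.97). The likeness was one of shape alone, since AFC3 had 3.59 FPKM in F5, against 4.44 FPKM in M5. For TAR4 LITCHI011524 they were an authors' new gene annotated as a receptor-like kinase (r = 0.91), an alpha-amylase (LITCHI010992, r = 0.88) and HSFA4b, a heat stress factor (LITCHI021651, r = 0.88).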

How the data were processed

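Column-purified, DNase-treated RNA was made into NEBNext Ultra libraries and sequenced in pairs. Per the study's methods, Trimmomatic was used for trimming, reads of ribosomal RNA were taken out, and Cufflinks gave the expression values. The submitters' processing notes name HISAT2 2.0.4 and StringTie, with no role, and the genome build is not given in the sources used here. The table deposited by the authors holds raw counts per entry and library, and FPKM values scaled by the authors to transcript length and library depth. Adjusted p-values and log2 fold changes of the authors' own DESeq2 comparisons were not used.

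The count model was edgeR 4.0.16 under R 4.3.3 (filterByExpr, TMM, glmQLFit and glmQLFTest), with all 30 libraries in 1 fit with a mean per group, and p-values were adjusted by Benjamini-Hochberg over 27854 genes. The filter removed 9380 genes. TMM factors were 0.774 to 1.16, and FPKM values do not contain them. SEs are approximate (fold change over the root of F), and intervals use 20 residual degrees of freedom. Bounds against groups at 0 take 3 counts per group as the limit and cover counting error only. Depth leaves entries under about 1 FPKM imprecise.

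Members, lists and markers were chosen with earlier results of these data known. The entries with a group mean of at least 1 FPKM were named with values, the others by counts and ranges, and the 3 genes most correlated with the highest entry of each family and the 2 entries of each pathway list with the highest mean FPKM were also named. Per-library values of YUC11 LITCHI011353 and the values of LITCHI025090, LITCHI013857, NGA1 and AGL11 are given outside this rule, chosen after they were seen. From the list of other routes to auxin, 7 entries annotated as ceramidase or nicotinamidase were left out. Scripts were tested on simulated data. Alternatives were library-size scaling, no filter, a stricter filter, a replicate block, entries summed per locus, only the groups compared, DESeq2 1.42.0 and each library left out.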

Additional observations from a re-analysis of the deposited data

Results flagged for a closer look

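The changes of 4 YUCCA genes differed between the sexes by the interaction test in edgeR, given as female minus male changes in log2. Between stages 1 and 5 these were 4 of 15 tested entries, where 22.6% of all genes were called. Between stages 3 and 4, 2 of 15 were called, where 9.64% of all genes were. Between stages 1 and 5 the difference was -10.59 for YUC2 LITCHI006663, with 8, 2 and 0 counts in F5 and 1010, 1424 and 1267 counts in M5, and 3.69 for YUC6 LITCHI017116. It was -1.79 for YUC3 LITCHI015165 (edgeR adjusted p = 0.002084), which rose in both sexes and whose call was lost with library-size scaling (-1.39, edgeR adjusted p = 0.0116), and 7.93 for YUC4 LITCHI017064, a fitted value that rests on 0 counts in M5 and is no bound. Between stages 3 and 4 it was -5.56 for YUC2 and 2.26 for YUC6.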

How the results depend on the processing

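Results kept their direction and call under most alternatives: none of the 42 fold changes looked at changed its call without the filter, with a stricter filter or with DESeq2. The replicate numbers did not pair libraries: among 15 female and male pairs of the same number, 0 correlated above 0.1 in their deviations from the group means (-0.0487 to 0.0346), and 7 were highest with their own number. With a replicate block the counts of called entries stayed within 1.5 times, and 1 fold change lost its call, that of YUC2 LITCHI006663 at stage 4 against stage 3 of female flowers (-2.41, edgeR adjusted p = 0.0103). Library-size scaling moved the median log2 fold change between the sexes by 0.21 at stage 4 and 0.47 at stage 5. With it, calls higher in female flowers made up 57.96%, 70.8% and 81.3% of calls at stages 3, 4 and 5, against 45.8%, 56.4% and 60.2% with TMM. For calls higher at stage 5 of male flowers the shares were 17.5% against stage 4 and 29.3% against stage 1, and 34.2% and 41.6% with TMM. For interactions more positive in female flowers they were 84.6% over stages 1 to 5 and 75.0% over stages 3 to 4, and 65.2% and 63.9% with TMM. The YUC10 m1 entry at stage 5 became called (1.19), and the signs of TAR4 LITCHI011524 (0.37) and TAR2 LITCHI022452.m1 (0.35) were turned. The YUC3 interaction over stages 1 to 5 lost its call (-1.39), as did the fall of the YUC10 m3 entry at stage 4 against 3 of female flowers (-0.98).

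With entries summed per locus, counts of called loci were 1 at stage 3 between the sexes, 1 at stage 2 against 1, 2 at stage 3 against 2 and 1 at stage 5 against 4 of female flowers, and 1 at stage 2 against 1 and 5 at stage 4 against 3 of male flowers. The stage 5 difference between the sexes changed sign to 0.0746 for YUC10 and 0.21 for TAR2. DESeq2 called 1 at stage 2 against 1, 3 at stage 3 against 2 and 1 at stage 5 against 4 of female flowers, and 1 at stage 2 against 1 of male flowers. With only the groups compared, 2 were called at stage 4 against 3 of female flowers and 1 at stage 5 against 4 of male flowers. The cause of these changes was not tested, and shares of all genes were not counted for DESeq2 or for only the groups compared.

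Leaving out 1 library at a time gave, in female flowers, counts of 0 to 1 at stage 2 against 1 (1 without F2 replicate 3), 0 to 2 at stage 3 against 2 (above 0 without F1 replicate 3, F2 replicate 3 or F5 replicate 1), 2 to 4 at stage 4 against 3 (2 without F3 replicate 1) and 0 to 1 at stage 5 against 4 (1 without M4 replicate 1 or 3 or any M5 library). In male flowers they were 0 to 1 at stage 2 against 1 (1 without F2 replicate 3 or M3 replicate 1) and 2 to 5 at stage 4 against 3 (5 without M4 replicate 1). For the interaction between stages 3 and 4 they were 1 to 3 (1 without M3 replicate 1). At stage 5 between the sexes, TAR2 LITCHI022452.m1 lay between -0.46 and 0.0223, the positive value without F5 replicate 1, and TAR4 LITCHI011524 between -0.24 and 0.0171, the positive value without F5 replicate 3.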
